A study of Mus musculus with 8 samples.

Results

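The retinoic acid genes described here are 9 of the 16096 genes in the deposited table: the retinal-forming enzyme Rdh10, the retinaldehyde dehydrogenases Aldh1a1, Aldh1a2 and Aldh1a3, the binding proteins Crabp1 and Crabp2, the degrading enzyme Cyp26b1, and the receptors Rara and Rarb. They were picked by gene symbol, with differences between these same libraries already known, and the clear increase of Crabp1 was part of the choice. Their fold changes are therefore given as a description. Whether a gene passed the threshold of the fit over all genes is stated without a p and supports nothing. All 9 were found in the table and all 9 passed the filter on low counts.

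RNA came from the dissected peripheral retina of mouse embryos (strain C57BL/6, embryonic day 16.5). Of the 8 libraries, 4 were labelled Pax6alpha-Cre:Ezh2fl/null (the conditional knockout) and 4 were labelled Pax6alpha-Cre:Ezh2fl/+ (the control). Ezh2 encodes the methyltransferase of Polycomb repressive complex 2, which places a repressive mark on histone H3. Both groups carry the Pax6alpha-Cre transgene, known for its activity in the peripheral retina, and 1 Ezh2 allele flanked by loxP sites, so the control cells that express Cre keep the wild-type allele alone. Cells without Cre keep the floxed allele and, in the conditional knockout, carry the null allele beside it. The labels name neither the embryo nor the litter of a library, so the errors below measure the spread between these samples. In whole retinal tissue, fewer cells of a type and less RNA per cell cannot be told apart.

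Retinoic acid is made from vitamin A in a pair of oxidations: retinol to retinal by enzymes such as Rdh10, and retinal to retinoic acid by the Aldh1a enzymes. In the cytoplasm it is bound by Crabp proteins and broken down by Cyp26 enzymes, and in the nucleus it is the ligand of the Rar receptors, which act on DNA with Rxr partners. The embryonic eye makes retinoic acid with Aldh1a1 in the dorsal retina and Aldh1a3 in the ventral retina, and Aldh1a2 is best known from mesenchyme outside the neural retina.

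Ezh2 was first examined as a check of the labels. It measured 276, 251, 255 and 220 CPM (read counts scaled to a common normalized library size) in replicates 1 to 4 labelled Ezh2fl/null, and 235, 230, 197 and 207 CPM in the control replicates. The ranges overlapped, and the log2 difference was 0.21 (SE 0.07, adjusted p = 0.0701 in edgeR's quasi-likelihood test). DESeq2, a replicate block and the fit without replicate 4 labelled Ezh2fl/null did call it higher. A count over the whole gene can hold reads outside the deleted exons, whose position the labels do not name, so this count checks nothing and every direction below rests on the labels. Total counts ran from 13994825 to 18391647 per library, Xist was counted 1714 times or more in 2 of the libraries labelled Ezh2fl/null and at most 4 times in the other 6, and the lens crystallin Cryaa reached 53 and 30 counts in 1 library of each group and at most 2 elsewhere.

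Of the 9 genes, edgeR called 3 higher (Crabp1, Aldh1a1, Aldh1a2) and 2 lower (Crabp2, Aldh1a3) in the libraries labelled Ezh2fl/null at an adjusted p under 0.05. Of all 15014 genes tested, 11.8% were called, 8.35% higher and 3.46% lower. Since the genes were chosen on this contrast, nothing is read from their larger share. Without any model, the CPM ranges of the groups did not overlap for 2 of the 9 in the higher direction and 2 in the lower direction, against 10.1% and 6.21% of all genes tested. The median log2 difference was 0.23 over the 9 genes and -0.01 over all genes tested.

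**Figure D1:**
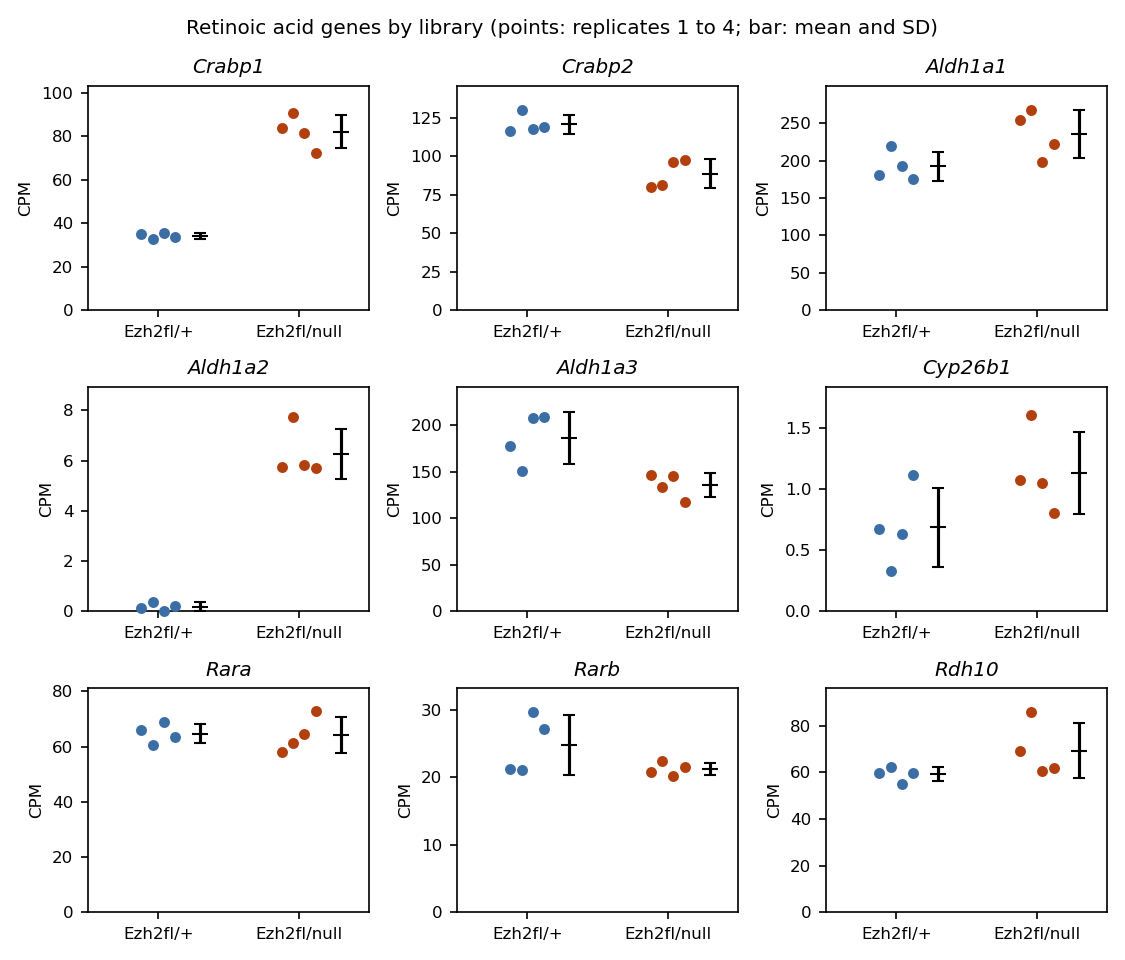
CPM of each of the 9 genes in the 8 libraries, on a separate linear axis per gene, with each point a library and each bar the group mean with its SD (n = 4). Crabp1 and Aldh1a2 lie higher, and Crabp2 and Aldh1a3 lower, in every library labelled Ezh2fl/null than in any control library; the groups of the other 5 genes overlap.

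Rdh10, the dehydrogenase that turns retinol into retinal, was read at 69.3, 85.9, 60.5 and 61.8 CPM in the libraries labelled Ezh2fl/null and at 59.6, 62.3, 55.2 and 59.6 CPM in the controls. Replicate 2 labelled Ezh2fl/null stood highest, and replicates 3 and 4 of its group lay within the control range. The means were 69.4 ± 11.7 and 59.2 ± 2.96 CPM (SD, n = 4 each), a log2 difference of 0.23 (SE 0.09, 95% limits 0.03 to 0.43), which was not called. The gene lies on mm10 chromosome 1, 16105774 to 16133734, on the plus strand.

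The 3 Aldh1a enzymes, which carry out the same oxidation, differed from each other in direction. Aldh1a2 rose from a level close to the limit of counting: 107, 111, 89 and 92 raw reads were counted in the libraries labelled Ezh2fl/null (399 in all) and 2, 6, 0 and 4 in the controls (12 in all). In normalized terms these were 5.75, 7.73, 5.84 and 5.68 CPM against 0.150, 0.393, 0 and 0.223 CPM. All 4 libraries labelled Ezh2fl/null were thus far above all 4 controls, of which only replicates 2 and 4 exceeded the 3 counts that correspond to 0.161 to 0.225 CPM. The fitted log2 difference was 4.93 (SE 0.31, 95% limits 4.26 to 5.60), a 30.4-fold difference with limits of 19.1 to 48.3. Its size depended on the scale more than its direction did: it was 4.04 when log2(FPKM + 0.1) was compared with limma, 4.55 without control replicate 3, 5.48 without control replicate 2, and 3.47 in the authors' deposited table of log2 ratios.

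Aldh1a2 lies on mm10 chromosome 9, 71215789 to 71296243, on the plus strand. Its nearest neighbours in the table, Polr2m and Adam10, lay 182194 and 435560 bases away. They differed by -0.06 and -0.15 on the log2 scale and were not called. The 250 bases before its RefSeq start, chr9:71215539-71215788 on the plus strand of GRCm38.p6, are shown because this gene had the largest difference of the 9 and its start is rich in CpG dinucleotides, which the capitals mark.
Aldh1a2: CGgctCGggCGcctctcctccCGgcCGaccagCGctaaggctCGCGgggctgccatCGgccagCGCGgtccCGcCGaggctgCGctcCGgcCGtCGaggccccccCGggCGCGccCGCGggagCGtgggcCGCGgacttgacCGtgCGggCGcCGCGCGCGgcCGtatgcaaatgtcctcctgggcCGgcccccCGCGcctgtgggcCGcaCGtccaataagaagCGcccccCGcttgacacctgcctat
These bases hold 40 CpG. The 300-base window that goes on to 50 bases after the start holds 50 CpG at a GC content of 78.0%, which is the 99.3rd percentile of CpG number among 32851 RefSeq start windows of that length, whose median is 7 CpG.

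Aldh1a3, the enzyme of the ventral retina, was lower. It stood at 146, 134, 146 and 118 CPM in the libraries labelled Ezh2fl/null and at 178, 151, 208 and 209 CPM in the controls. The lowest control lay just above the highest library labelled Ezh2fl/null, so the groups met closely without overlapping. Means were 136 ± 13.4 and 186 ± 27.9 CPM (SD, n = 4 each) and the log2 difference was -0.46 (SE 0.09, 95% limits -0.65 to -0.26), or 0.729-fold. The gene lies on mm10 chromosome 7, 66390890 to 66427517, on the minus strand.

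Aldh1a1, the enzyme of the dorsal retina, measured 255, 268, 198 and 222 CPM in the libraries labelled Ezh2fl/null and 181, 220, 192 and 175 CPM in the controls. Control replicate 2 was level with replicate 4 labelled Ezh2fl/null and above replicate 3, so the groups overlapped. The log2 difference was 0.29 (SE 0.09, 95% limits 0.11 to 0.48), and the call was lost in 9 of 19 alternative analyses, among them the fits without replicate 1 or 2 labelled Ezh2fl/null and without control replicate 1, 3 or 4, and the fit with the Xist status of the libraries as a term. The gene is on mm10 chromosome 19, 20492715 to 20643465, on the plus strand, and reads may be divided with its near copy Aldh1a7, which measured 1.82 and 1.35 CPM (log2 difference 0.44, edgeR adjusted p = 0.366). Its pair of RefSeq start windows holds 3 and 1 CpG, below the median of 7.

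Per gene length, in the authors' FPKM, which are scaled by gene length and by counted reads, the 3 enzymes summed to 148 ± 13.5 in the libraries labelled Ezh2fl/null and to 133 ± 9.23 in the controls (SD, n = 4 each), with overlapping ranges. Aldh1a3 supplied 20.2% ± 2.83 against 30.2% ± 4.89 of it and Aldh1a1 77.9% ± 2.84 against 69.7% ± 4.86, and both shares overlapped between groups. The Aldh1a2 share, 1.88% ± 0.211 against 0.0629% ± 0.0515, did not overlap. The FPKM of Aldh1a1 follow from a gene length of 2054 bases, where the annotated exons cover 4937 bases. With every gene scaled by its annotated exons the Aldh1a1 share was 59.6% against 49.1%, again with overlapping ranges. Aldh1a2, for all its fold change, thus remained a small part of the Aldh1a transcripts in these tissue samples.

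**Figure D2:**
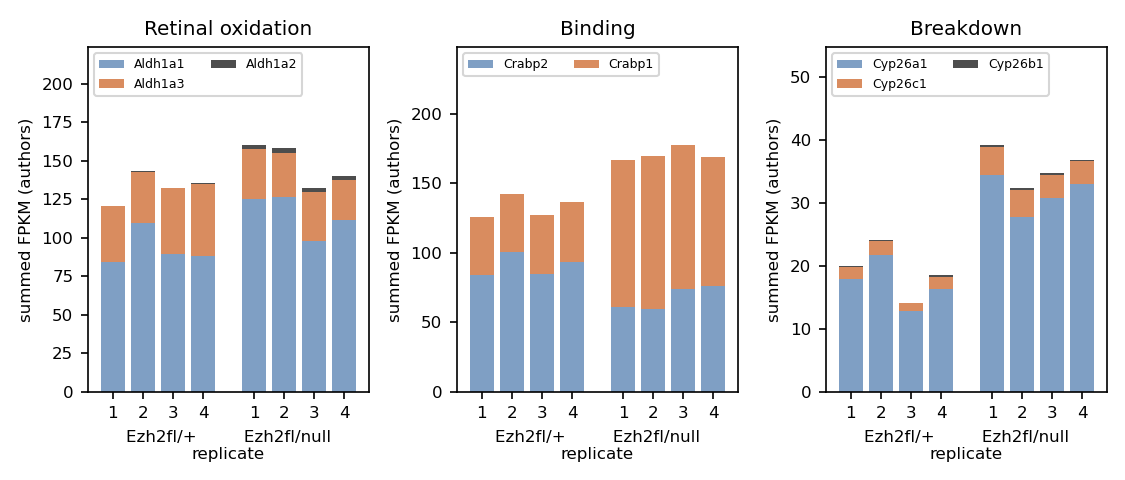
Summed FPKM of the Aldh1a (retinal oxidation), Crabp (binding) and Cyp26 (breakdown) families, 1 stacked bar per library on axes that start at 0, with a colour per gene. The Crabp1 part widens and the Crabp2 part narrows in the 4 libraries labelled Ezh2fl/null, the Cyp26 sum is higher there, and the Aldh1a sums overlap between groups.

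The binding proteins changed in opposite directions. Crabp1, a carrier of retinoic acid in the cytoplasm, measured 83.8, 90.9, 81.7 and 72.2 CPM in the libraries labelled Ezh2fl/null and 35.0, 32.7, 35.5 and 33.7 CPM in the controls. Every library labelled Ezh2fl/null was above every control by a wide margin, and the 4 controls lay close together, with a coefficient of variation of 3.63% against 9.35%. Means were 82.1 ± 7.68 and 34.2 ± 1.24 CPM (SD, n = 4 each), and the log2 difference was 1.26 (SE 0.07), or 2.40-fold with 95% limits of 2.17 to 2.66. The authors' deposited table gives 1.24.

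Crabp2, its close relative, measured 79.7, 81.0, 96.0 and 97.6 CPM in the libraries labelled Ezh2fl/null and 116, 130, 118 and 119 CPM in the controls. Replicates 1 and 2 labelled Ezh2fl/null were lowest, and no library of that group reached the lowest control. Means were 88.5 ± 9.52 and 121 ± 6.16 CPM, a log2 difference of -0.45 (SE 0.07, 95% limits -0.59 to -0.30), or 0.734-fold. The gene lies on mm10 chromosome 3, 87948666 to 87953376, on the plus strand.

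Set against each other per gene length, the carriers exchanged rank. In the controls Crabp1 made up 29.4% to 33.2% of the summed Crabp FPKM, and in the libraries labelled Ezh2fl/null 55.0% to 64.9%. The ratio of Crabp1 to Crabp2 was 0.469 ± 0.0380 in the controls and 1.55 ± 0.291 in the libraries labelled Ezh2fl/null (SD, n = 4 each), so Crabp2 predominated in each control and Crabp1 in each library labelled Ezh2fl/null. Their sum was 133 ± 7.96 and 171 ± 4.61 FPKM, without overlap.

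Crabp1 lies on mm10 chromosome 9, 54764748 to 54773110, on the plus strand, and its nearest neighbours in the table, Wdr61 and Ireb2, each differed by 0.03 on the log2 scale and were not called. Over all 9 genes, 18 of 18 nearest neighbours were tested and 0 were called by edgeR, DESeq2 or limma. By edgeR 11.8% of all genes tested were called, and 3 of the 18 had an unadjusted edgeR p under 0.05. Gaps to the neighbours ran from 1112 bases (Rpl7 beside Rdh10) to 841105 bases (Thrb beside Rarb). These neighbours were chosen by position after the values of the 9 genes had been seen. The 250 bases before the RefSeq start of Crabp1, chr9:54764498-54764747 on the plus strand, are shown beside those of Aldh1a2 because these were the 2 largest increases of the 9. CpG are again in capitals.
Crabp1: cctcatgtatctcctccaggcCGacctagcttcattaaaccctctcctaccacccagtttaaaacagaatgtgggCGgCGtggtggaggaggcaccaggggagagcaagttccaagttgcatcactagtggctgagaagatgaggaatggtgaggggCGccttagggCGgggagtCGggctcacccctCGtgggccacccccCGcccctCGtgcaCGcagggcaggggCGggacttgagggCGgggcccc
The 12 CpG here, and 17 in the 300-base start window (70.3rd percentile), are far fewer than at Aldh1a2 but more than the median window holds.

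The genes whose profile over the 8 libraries was nearest to that of Crabp1 were found among the 10187 genes averaging 10 CPM or more, as the root mean square difference of centred log2(CPM + 0.1). They were Bmi1 (0.0379), a component of Polycomb repressive complex 1, then Meis2 (0.0870), a homeodomain factor, Calb2 (0.113), which encodes the calcium-binding protein calretinin, Tmem215 (0.116) and Hs3st3b1 (0.120). Their log2 differences between the groups were 1.26, 1.15, 1.35, 1.17 and 1.15, beside 1.26 for Crabp1. For Aldh1a3 the nearest were Col9a1 (0.0941), Clstn2 (0.0966), Hes5 (0.120), AW551984 (0.129) and Iqcg (0.133), with log2 differences of -0.47, -0.42, -0.41, -0.38 and -0.28. These distances are a description over 8 libraries, and the likeness in log2 difference follows from choosing genes by their profile.

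**Figure D3:**
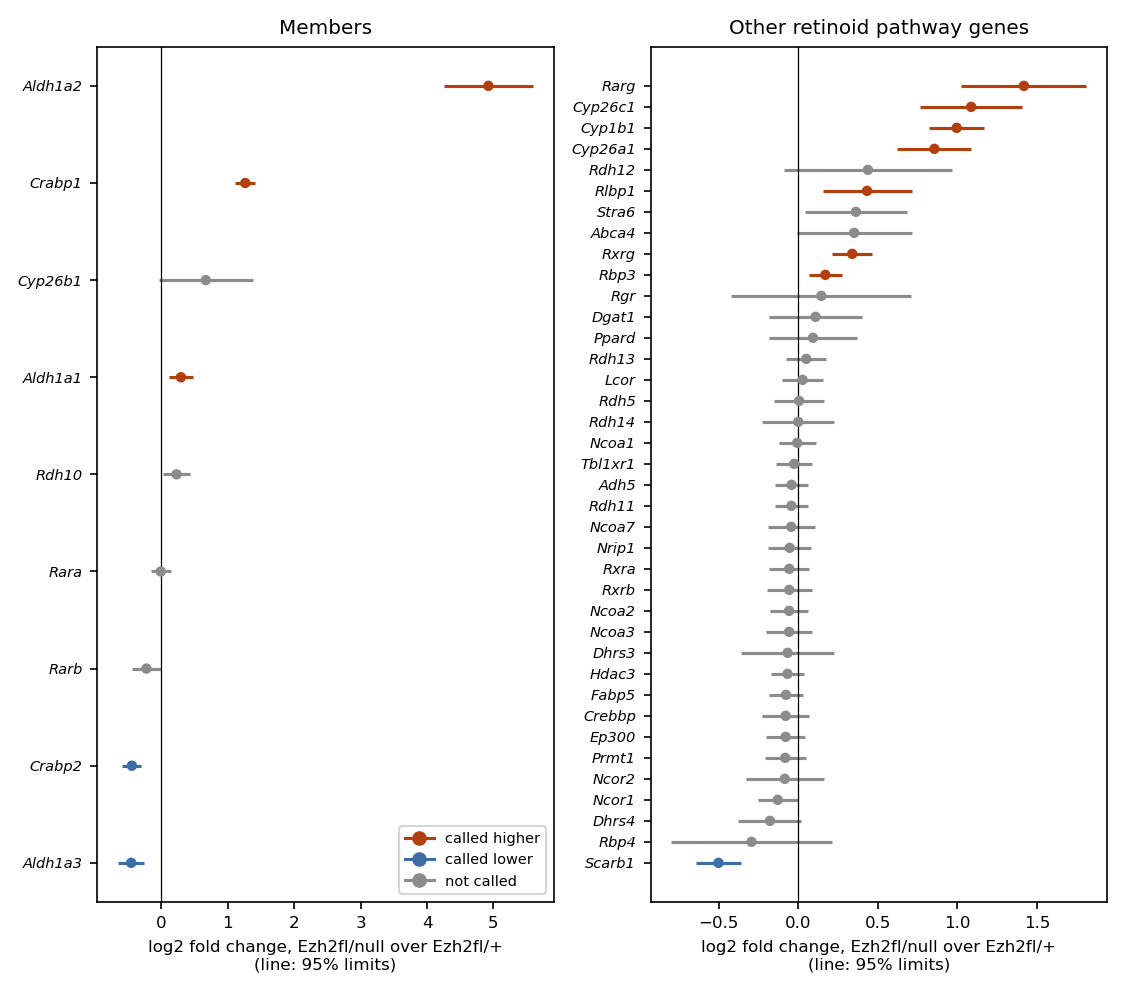
Log2 difference of the libraries labelled Ezh2fl/null over controls, with 95% limits, for the 9 genes (left) and other retinoid pathway genes tested (right, on a narrower axis), coloured by call. Aldh1a2 lies farthest to the right at 4.93, Crabp1 follows among the 9 at 1.26, and Rara lies at -0.01.

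Breakdown of retinoic acid is the task of 3 Cyp26 enzymes, of which Cyp26b1 is among the 9 genes. Its reads were few: 20, 23, 16 and 13 in the libraries labelled Ezh2fl/null (72 in all) and 9, 5, 9 and 20 in the controls (43 in all). In CPM these were 1.08, 1.60, 1.05 and 0.803 against 0.674, 0.327, 0.631 and 1.11, and control replicate 4 lay within the upper group. The log2 difference was 0.67 (SE 0.33, 95% limits -0.04 to 1.38), not called at a depth that leaves a wide interval. The gene lies on mm10 chromosome 6, 84571414 to 84593908, on the minus strand.

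The other 2 breakdown enzymes, which were not among the 9 genes, both rose. The lists of further genes were also drawn up with earlier results of these data known, so their adjusted p are given as description. Cyp26a1 measured 60.3, 50.6, 53.7 and 56.7 CPM in the libraries labelled Ezh2fl/null and 33.3, 37.6, 23.7 and 27.8 CPM in the controls, a log2 difference of 0.86 (SE 0.11, edgeR adjusted p = 8.8e-05). Cyp26c1 measured 6.94 ± 0.814 against 3.26 ± 0.666 CPM (log2 difference 1.09, edgeR adjusted p = 0.000184). Cyp26b1 was under 1% of the summed Cyp26 FPKM in each group (0.667% and 0.779%), and Cyp26a1 made up 88.1% and 89.5%. The sum was 35.7 ± 2.88 FPKM in the libraries labelled Ezh2fl/null and 19.2 ± 4.09 FPKM in the controls, and the ratio of summed Aldh1a to summed Cyp26 was 4.16 ± 0.509 against 7.18 ± 1.58 (SD, n = 4 each), with ranges of 3.82 to 4.90 and 5.96 to 9.36. With every gene scaled by its annotated exons the ratio was 2.50 ± 0.261 against 4.72 ± 1.18, again without overlap.

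Neither receptor among the 9 genes was called. Rara, a nuclear receptor for retinoic acid, measured 57.9, 61.3, 64.5 and 73.0 CPM in the libraries labelled Ezh2fl/null and 65.8, 60.5, 68.7 and 63.4 CPM in the controls. The controls fell inside the range of the other group, and the log2 difference was -0.01 with 95% limits of -0.16 to 0.14. The gene lies on mm10 chromosome 11, 98927818 to 98974942, on the plus strand.

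Rarb, a receptor gene known to be induced by retinoic acid itself, measured 20.7, 22.4, 20.3 and 21.5 CPM in the libraries labelled Ezh2fl/null and 21.2, 21.0, 29.7 and 27.2 CPM in the controls. Control replicates 3 and 4 were high, and control replicates 1 and 2 lay among the libraries labelled Ezh2fl/null. The log2 difference was -0.23 (SE 0.10, 95% limits -0.44 to -0.01) and was not called. Rarb is on mm10 chromosome 14, 16430839 to 16819156, on the minus strand, and its exons overlap those of Top2b on the opposite strand. No source used here says whether counting used the strand, so reads from the overlap cannot be told apart.

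The promoter of Rarb is the textbook carrier of a retinoic acid response element of the DR5 kind, a direct repeat of the receptor half-site spaced by 5 bases. That motif was searched by name on both strands of the 300-base start windows. It was found in 32 of 32851 windows (0.0974%), and of the 6 genes of the 9 matched in the RefSeq table of start windows (Crabp1, Aldh1a1, Aldh1a2, Cyp26b1, Rara and Rarb) in Rarb alone. The site spans 17 bases, from 53 to 37 bases before the start, chr14:16575513-16575529 on the minus strand of GRCm38.p6, and is printed with both half-sites in capitals.
Rarb: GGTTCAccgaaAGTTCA
The single half-site AGGTCA was present in 16.3% of all windows and, among the 6 genes, at 1 of the 4 starts of Rara. These matches describe letters in a window. A window without one says nothing of the receptors.

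Of the other receptor genes tested, 2 of 5 were called higher, beside 8.35% of all genes tested. These 5 were also listed with earlier results known. Rarg, the third receptor of the family, measured 2.69, 4.04, 3.61 and 3.52 CPM in the libraries labelled Ezh2fl/null and 1.42, 1.31, 1.12 and 1.28 CPM in the controls (log2 difference 1.42, SE 0.18, edgeR adjusted p = 0.000101). Its share of the summed Rar FPKM was 3.73% ± 0.538 against 1.36% ± 0.224, so Rara and Rarb held the rest in both groups. The Rar sum was 22.7 ± 1.93 and 23.1 ± 1.82 FPKM. Rxrg, a partner receptor made in the retina by cones and ganglion cells, was 40.5 ± 0.720 against 32.0 ± 2.16 CPM (log2 difference 0.34, edgeR adjusted p = 0.00109), and Rxra was not called (log2 difference -0.06, adjusted p = 0.641).

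Ordered by FPKM, the control libraries had Aldh1a1 (92.8 ± 11.4) and Crabp2 (90.5 ± 7.78) at the top, then Crabp1 (42.3 ± 0.840) and Aldh1a3 (40.0 ± 6.06), then Rara (14.7 ± 0.433) and Rdh10 (14.1 ± 1.20), then Rarb (8.10 ± 1.42), with Cyp26b1 (0.141 ± 0.0704) and Aldh1a2 (0.0856 ± 0.0743) at the bottom (SD, n = 4 each). Neighbours named as a pair overlapped between libraries, and each pair lay apart from the next. The libraries labelled Ezh2fl/null had Crabp1 (103 ± 7.37) overlapping Aldh1a1 (115 ± 13.6) and above Crabp2 (67.6 ± 8.51), and Aldh1a2 (2.77 ± 0.364) above Cyp26b1 (0.234 ± 0.0630). In between came Aldh1a3 (29.6 ± 2.89), Rdh10 (16.7 ± 2.39) overlapping Rara (14.8 ± 1.75), and Rarb (7.05 ± 0.237). Scaled by the annotated exons, the control level of Aldh1a1 would be 38.6 FPKM, near those of Crabp1 and Aldh1a3. That of Rarb would be 4.67 FPKM, which keeps its place. In the libraries labelled Ezh2fl/null the summed Aldh1a would be 80.4 ± 5.98 on that scale, with Aldh1a1 59.6% of it. Aldh1a1 would then lie below Crabp1 without overlap, and below the mean of Crabp2.

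Around these 9 genes, 57 further genes of the retinoid pathway were listed, of which 39 were tested. Of the 39, 7 were called higher, 1 lower and 31 were not called, with a median log2 difference of -0.03. This is 20.5% called, beside 11.8% of all genes tested. None of the 7 genes interconverting retinol and retinal was called by edgeR (the most abundant, Adh5, Rdh11 and Rdh13, lay at -0.04, -0.04 and 0.05 on the log2 scale), nor was any of the 13 nuclear coregulators (Ncor1, Ncoa2 and Crebbp at -0.13, -0.06 and -0.08). The adjusted p of these 6 named genes ran from 0.198 for Ncor1 to 0.675 for Rdh11. At an unadjusted edgeR p under 0.05 there were 0 of the 7 and 1 of the 13, and DESeq2 and limma called 0 of either. Fabp5, the other carrier that brings retinoic acid to the nucleus, was also not called (-0.08, adjusted p = 0.409). In uptake and storage, 1 of 5 was called: Scarb1, a scavenger receptor for lipoproteins that also takes up carotenoids, fell to 40.5 ± 3.13 from 57.4 ± 2.74 CPM (log2 difference -0.50, edgeR adjusted p = 0.000111). The esterifying enzyme Dgat1 differed by 0.11 (adjusted p = 0.698). Cyp1b1, an oxidase able to make retinoic acid without the Aldh1a enzymes, rose from 54.4 ± 6.04 to 108 ± 9.67 CPM (log2 difference 1.00, SE 0.08, edgeR adjusted p = 1.09e-06). Of 5 visual cycle genes tested, Rlbp1 (0.43, edgeR adjusted p = 0.0441) and Rbp3 (0.17, adjusted p = 0.0327) were called higher, and Rdh5 was level (0.01, adjusted p = 0.974). The call of Rlbp1 was lost in 12 of the 19 alternatives, among them the fits without any 1 library other than replicate 4 labelled Ezh2fl/null, and that of Rbp3 in 9, among them the fits without replicate 1 or 2 labelled Ezh2fl/null or control replicate 1, 2 or 4.

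Of 16 other genes known to respond to retinoic acid, 6 were called higher, 2 lower and 8 were not called. Of all genes tested, 8.35% were called higher and 3.46% lower, and the 16 were listed with earlier results known. Their median log2 difference was 0.11. Cyp26a1, given above, is among the 6, as is Meis2, which rose from 81.5 ± 4.28 to 181 ± 24.9 CPM (1.15, edgeR adjusted p = 3.11e-07). Tgm2, a transglutaminase induced by retinoic acid in many cells, rose from 18.9 ± 2.25 to 40.1 ± 1.61 CPM (1.08, edgeR adjusted p = 3.65e-07), and Tshz1, a zinc-finger factor, from 53.5 to 81.6 CPM (0.61, adjusted p = 4.03e-06). Foxc1, a transcription factor of the mesenchyme around the eye, rose from 0.326 to 2.08 CPM (2.63, edgeR adjusted p = 0.000118), and by 1.83 with limma on log2(FPKM + 0.1). Meis1 (-0.27, adjusted p = 0.000545) and the nuclear receptor Nr2f1 (-0.29, adjusted p = 0.00284) fell. Among 13 genes of dorsoventral patterning, the axis along which Aldh1a1 and Aldh1a3 divide, 10 were not called (23.1% called), with a median of -0.01. Nr2f1 was the 1 called lower. Tbx5, a dorsal factor (0.50, edgeR adjusted p = 0.0155), and Vax1, a ventral factor (0.64, adjusted p = 0.0145), were both called higher. The call of Tbx5 was lost with limma and at an adjusted p under 0.01, and that of Vax1 with Xist status as a term, in the libraries without Xist counts, at an adjusted p under 0.01 and without the 2 libraries with lens crystallin counts.

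Markers of other cells moved beside these genes. For comparison with the counts below, edgeR called 8.35% of all genes tested higher and 3.46% lower. For mesenchyme around the eye, 5 of 11 tested markers were called higher (among them Foxc1, Twist1, Prrx1 and Pdgfra) by edgeR, DESeq2 and limma alike, and 0 lower (1 at an unadjusted edgeR p under 0.05), while their summed level overlapped, at 49.8 to 101 CPM in the libraries labelled Ezh2fl/null and 38.8 to 74.3 CPM in the controls. The markers Foxc2, Twist2 and Tcf21 were not among the rows analysed here, and the part of such cells in the rise of Aldh1a2 was not tested. For amacrine cells, 5 of 12 were called higher (summed 1243 to 1303 against 1055 to 1175 CPM). Much of that rise was Meis2, given above as a response gene, at 181 ± 24.9 against 81.5 ± 4.28 CPM. Pax6, the most abundant of the 12, was not called, at 681 ± 6.55 against 729 ± 16.3 CPM. The sum without Meis2 was not examined. For the ciliary margin 6 of 11 were higher and 1 lower (299 to 330 against 201 to 221 CPM). Photoreceptor markers, which include Rxrg, had 6 of 8 higher and 0 lower (830 to 917 against 724 to 780 CPM). Microglia had 4 of 8 higher (47.5 to 54.9 against 34.7 to 41.4 CPM), and neither of these sums overlapped. Ganglion cell markers had 0 of 11 higher and 3 lower, with overlapping sums (2378 to 2540 against 2532 to 2816 CPM). Endothelial markers had 2 of 5 higher and 1 lower, with a lower sum (269 to 320 against 335 to 363 CPM). Pigment epithelium markers had 1 of 9 higher, Rlbp1 itself, with overlapping sums (58.0 to 78.7 against 49.4 to 93.5 CPM). The part of the listed cells in the rises of Rxrg, Rbp3 and Rlbp1 was not tested. Retinal progenitor markers, the defining genes of the labelled tissue, were present at 4741 to 5513 CPM in sum against 5821 to 6617. Of the 10, 3 were called lower and 0 higher. Most of the sum was Ccnd1, which was called lower, at 3217 ± 183 against 4102 ± 131 CPM (SD, n = 4 each). The part of the listed cell types in the rise of Crabp1 and the fall of Crabp2 and Aldh1a3 was not tested.

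**Figure D4:**
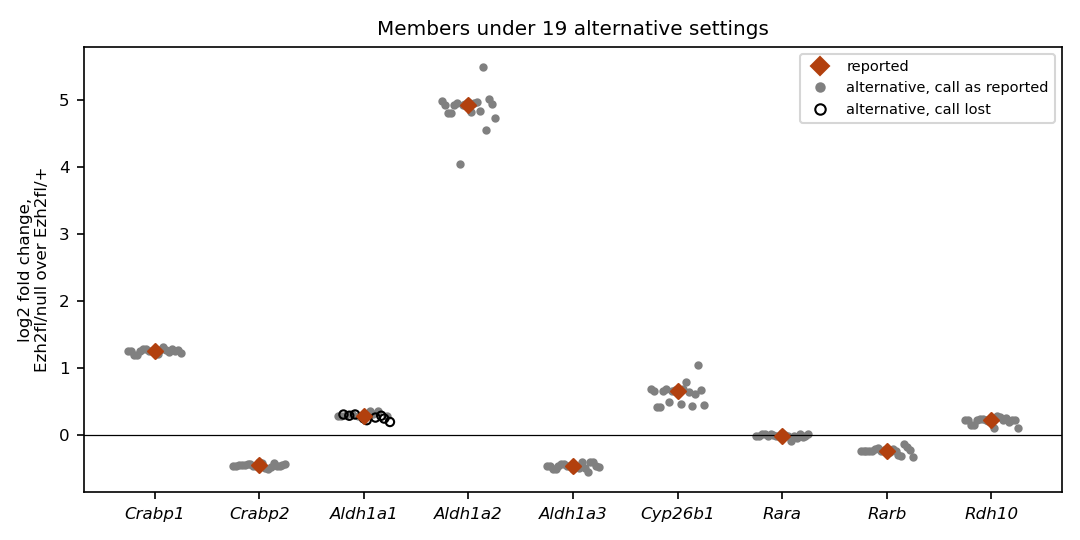
Log2 difference of each of the 9 genes in the analysis reported and in 19 alternative analyses, 1 point each, with open circles where a call was lost. The points of Aldh1a2 spread most, from 4.04 to 5.48, those of Crabp1 stay at 1.19 or above, and Aldh1a1 is the only gene of the 9 whose call changed.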

How the data were processed

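The authors deposited 1 table of 16096 genes with raw counts, FPKM and a log2 ratio for the 8 libraries, and an adjusted p recorded as a score on an unnamed scale, which was not used. The submitters' processing notes name Novoalign 2.08.01, the build mm10 and DESeq2. The counter, its annotation and its use of strand are not stated there. Every row of the table holds at least 18 counts in sum.

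Counts were tested here across all genes with edgeR 4.0.16 (R 4.3.3): TMM normalization, filterByExpr (minimum count 10, leaving 15014 genes), quasi-likelihood test, Benjamini-Hochberg adjustment, 4 against 4 libraries, no covariate, calls at an adjusted p under 0.05. SE and 95% limits come from the quasi-likelihood fit. The authors' FPKM served for levels between genes. The authors' log2 ratio is quoted beside the fits. The 9 members and the gene lists were chosen with earlier results of these data known. Named genes outside the members come from those lists: every called gene of a pathway list and, where under 3 were called, its most abundant genes up to 3. The 5 nearest profiles of Crabp1 and of Aldh1a3 were added, and certain genes are not reported here. The test was tried on simulated counts. It called 44% of genes set at 1.25-fold, 78% at 1.5-fold, 90% at 2-fold and 100% at 4-fold, and 13 unchanged genes. A gene not called here can thus still differ by a small fold. Gene models are those of GENCODE for mm10, and start windows those of RefSeq on GRCm38.p6. Motifs and CpG were counted in the 300-base windows from 250 bases before a start. Within groups no pair of libraries agreed within sampling noise. Alternatives used DESeq2 1.42.0, limma 3.58.1 on log2(FPKM + 0.1), other scalings and filters, a replicate block, Xist status and left-out libraries.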

Additional observations from a re-analysis of the deposited data

Results flagged for a closer look

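Among the 9 retinoic acid genes and the 29 other genes described, the lowest or highest library of each group was compared with its nearest neighbour (76 groups of 4, Dixon's criterion, which chance meets in about 5% of groups). In 3 of the 76 a library stood apart. Replicate 2 labelled Ezh2fl/null was high for Aldh1a2, at 7.73 CPM with the next at 5.84 CPM, and without that library the log2 difference of Aldh1a2 was 4.81. Replicate 3 labelled Ezh2fl/null was low for Meis1, at 166 CPM with the next at 176 CPM. Replicate 4 labelled Ezh2fl/null was high for Tbx5, at 22.3 CPM with the next at 15.7 CPM.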

How the results depend on the processing

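Over 19 alternatives, 162 of 171 values of the 9 genes kept their call, and the other 9, all of Aldh1a1, lost it without changing sign (log2 0.20 to 0.37). No called gene named here changed sign, while Rara, which was not called, ran from -0.08 to 0.04. The whole-table counts, 1253 higher and 520 lower, moved more: 795 and 246 with Xist status as a covariate, 800 and 255 in the libraries without Xist counts, and 801 and 200 at an adjusted p under 0.01. Genes called lower numbered 220 with limma, 323 without the 2 libraries with lens crystallin counts, and 273 with library size alone, where 82.5% of calls were higher against 70.7%. Leaving out each library in turn gave 1008 to 1233 higher and 329 (without control replicate 3) to 667 lower. The other pathway genes gave 5 to 7 higher and 1 to 2 lower, the latter without replicate 4 labelled Ezh2fl/null, where Ncor1 was added.

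Replicates of the same number correlated at 0.23, -0.09, 0.01 and 0.17 across genes, and those of different numbers at -0.22 to 0.16. These values do not settle whether the numbers pair samples. The labels do not say so, and the replicates were not taken as pairs. With a replicate block the table gave 1179 higher and 497 lower, and Aldh1a2 differed by 4.94. Depth limits Cyp26b1 and the controls of Aldh1a2.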
